A study of Mus musculus with 2 samples.

Results

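The microRNA genes Mir6896 to Mir7094 are a numbered series of mouse hairpins predicted as mirtrons, in introns of other genes. They were followed here in microRNA-seq libraries from the left cerebral cortex. All genes with a GENCODE M21 symbol in the run from Mir6896 to Mir7094 were taken, with or without a letter or copy suffix. That gave 201 of the 2202 microRNA genes in the tables, covering 198 of the 199 numbers in the range, and 5 of them carry a suffix. The 2 libraries came from 2 female mice of the hybrid strain B6CASTF1/J at 36 days of age (a first-generation cross of C57BL/6J and CAST/EiJ), given as biological replicates 1 and 2 of a single group under 1 donor code. No treatment or second tissue was labelled, so the libraries describe 1 tissue. The labels number the females separately, and they were taken as 2 animals although the donor code is shared; if they were not, every SD here is the spread between 2 samples only. Mouse 1 gave 1930234 counts on the sense strand of microRNA genes and mouse 2 gave 1863876. Mir128-1, a gene of the brain-enriched miR-128, had 31429 and 32017 of them, and Mir128-2 had 7174 and 6140, while the 2 copies of the muscle gene Mir1a had 0 and 1. The 3 copies of Mir124a, whose product is typical of neurons, had 6 and 8 together. Reads that fit several places in the genome entered no gene count. Their part in the low values of Mir1a and Mir124a, each with more than 1 copy, and in the counts of Mir128-1 and Mir128-2 was not tested.

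A mirtron is an intron that, once spliced out and debranched, folds into a hairpin that Dicer can cut, so that the splicing machinery takes the place of Drosha. In a conventional mirtron both hairpin ends are splice sites. In a tailed mirtron only one end is a splice site, and the rest of the intron must be trimmed away by an exonuclease. Most predicted mirtrons rest on few small RNA reads, and their level depends on transcription of the host gene and on how well the excised intron is processed.

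The sequences below belong to the most abundant members and show what these hairpins look like. Mir7080 and Mir6944 are whole introns, shown 5′ to 3′ with the GU of the 5′ splice site and the AG of the 3′ splice site in capitals (RefSeq, GRCm38.p6).
Mir7080 hairpin (chr8:123130106-123130172, plus strand): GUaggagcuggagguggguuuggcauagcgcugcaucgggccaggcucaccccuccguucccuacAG
Mir6944 hairpin (chr13:55477681-55477776, minus strand): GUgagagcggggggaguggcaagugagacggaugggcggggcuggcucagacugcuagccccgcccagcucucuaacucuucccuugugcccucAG

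The mature arms follow for the members at 10 CPM or more in both mice, with Mir7066 added because it differed between the mice. CPM stands for the sense counts of a gene per 1000000 sense counts of its library. The seed, bases 2 to 8, is in capitals. Mir6953 and Mir6954, also at that level, are named only, and no sequence is shown for Mir6982 and Mir7047.
mmu-miR-7080-5p: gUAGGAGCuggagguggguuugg
mmu-miR-7080-3p: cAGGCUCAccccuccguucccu
mmu-miR-7044-5p: gUGUGGUGgugguggcggc
mmu-miR-7044-3p: aUGCAGCCccgacccucacag
mmu-miR-6944-5p: gUGAGAGCggggggaguggcaag
mmu-miR-6944-3p: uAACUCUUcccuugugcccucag
mmu-miR-7019-5p: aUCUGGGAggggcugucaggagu
mmu-miR-7019-3p: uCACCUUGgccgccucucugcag
mmu-miR-7046-5p: uGUAGGGUgaggcugggagccagg
mmu-miR-7046-3p: uGAACCACccaucccccuacag
mmu-miR-7066-5p: uGGGUUGGgaaaugaguagagg
mmu-miR-7066-3p: uCUACCCAuugccugccucccag

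Most of these genes were read, nearly all of them at a very low level. Of the 201 members, 157 (78.1%) had at least 1 sense count in either mouse, against 32.8% of all 2202 microRNA genes. The 2202 include 1028 genes without a Mir symbol, of which 43 (4.18%) were read. Of the 973 other Mir genes, 522 (53.6%) were read, and of the 612 of them inside a gene of the same strand, 369 (60.3%). In both mice 104 members (51.7%) were read, against 25.6% of all genes and 45.0% of the other Mir genes. At higher levels the members' share was the lower one. In both mice 9 members (4.48%) reached 10 CPM, against 13.8% of all genes and 29.9% of the other Mir genes. No member reached 100 CPM in both. Together the members held 1602 counts in mouse 1 and 1136 in mouse 2. Their share of sense counts was 0.0830% (95% exact binomial interval 0.0790 to 0.0872) in mouse 1 and 0.0609% (0.0575 to 0.0646) in mouse 2, or 0.0720% ± 0.0156 (SD, n = 2). These intervals, and all others of single libraries here, cover counting error only.

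By summed counts of both mice, 44 members had 0, 45 had 1 or 2, 67 had 3 to 9, 30 had 10 to 29, 11 had 30 to 99 and 4 had 100 or more. The median member had 3 counts in all, or 0.79 CPM. The median was 0 over all genes and 1 count over the 973 other Mir genes. Of the 157 members read, 81 had no more than 3 counts in either library, and 49 had more than 3 in both. The 269 other Mir genes numbered 5000 or more, which are also late additions to the catalogue, were read less widely. Among these, 89 (33.1%) had a count, 180 had none, and 11 (4.09%) reached 10 CPM in both mice. Counting only the 159 of them that lie inside a gene of the same strand, a subset chosen after the data were seen, 70 (44.0%) had a count and 3 reached 10 CPM in both mice. Of the 704 remaining Mir genes, 433 (61.5%) were read and 280 (39.8%) reached 10 CPM in both mice. Of these sets the members had the highest share of genes read, with most of them between 1 and 29 counts. Among the 704 genes, 241 (34.2%) have a run of 20 bases in common with another annotated hairpin, against 4 members (1.99%). Reads that fit several places are not counted, and their part in these shares was not tested. The shares are descriptions, with no test over genes.

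**Figure D1:**
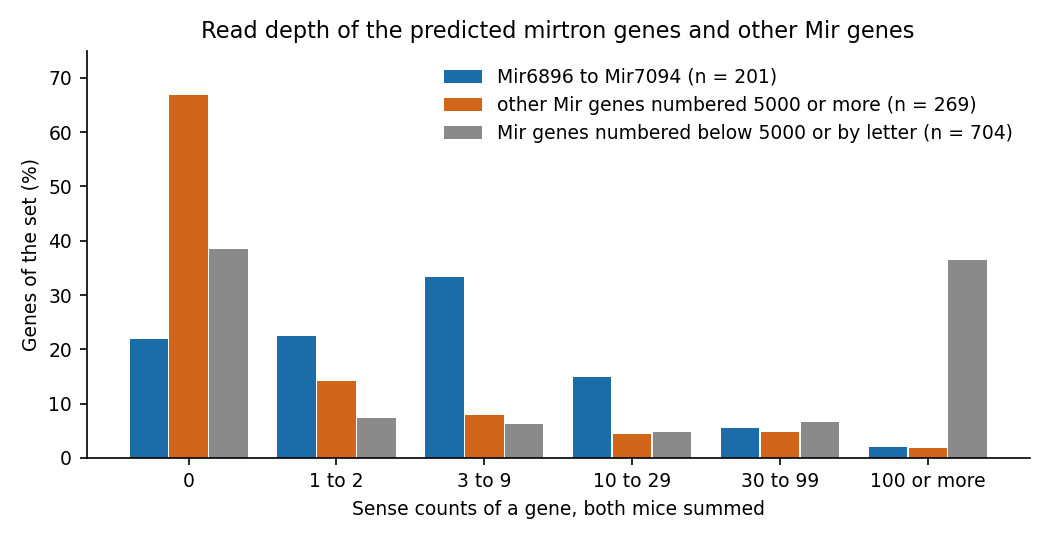
Share of genes (%, y axis) by sense counts summed over both mice (x axis) for Mir6896 to Mir7094 (n = 201), the other Mir genes numbered 5000 or more (n = 269) and the remaining Mir genes (n = 704). The predicted mirtrons pile up at 3 to 9 counts, while 66.9% of the other high-numbered genes had 0 and 36.5% of the remaining genes had 100 or more.

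Nearly all reads were on the strand of the hairpin and its host. The members had 2738 sense counts and 4 on the opposite strand, 3 of them at Mir7071 and 1 at Mir7056. No member had more opposite-strand than sense counts. The sense strand of the hairpin is also the strand of the host's pre-mRNA. Reads from a cut microRNA and from other short pieces of the intron cannot be told apart in counts per gene, and neither can the 2 arms.

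Few members shared a long run of bases with another annotated hairpin, and matches elsewhere in the genome were not looked for. Only 4 of the 201 hairpins have a run of 20 bases in common with another annotated hairpin, against 262 (26.9%) of the 973 other Mir genes. These 4 are Mir6970, Mir7065, Mir7094-1 and Mir7094-2, which had 0 counts in both mice except for 3 of Mir6970 in mouse 2. For these 4, reads that fit both copies are not in the counts.

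A few members carried much of the signal. The 4 highest held 1251 of the 2738 counts (45.7%), with 45.3% in mouse 1 and 46.3% in mouse 2, and the 20 highest held 70.9%. The other 197 members shared 1487 counts. All 201 lie inside a gene of the same strand, 196 host genes in all, and 199 of the members lie in protein-coding genes. Host transcripts were not measured in these libraries, so levels are set beside the hosts' known roles only.

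Mir7080 (ENSMUSG00000098582.1) was the most abundant, with 249 counts in mouse 1 and 185 in mouse 2. That is 129 CPM (95% interval 113 to 146) and 99.3 CPM (85.5 to 114.6), or 114 ± 21.03 CPM (SD, n = 2). It is an intron of Cpne7, which encodes a copine, a calcium-dependent membrane-binding protein, and the 67-base hairpin fills that intron exactly. An exon without coding annotation overlaps it in another transcript. The intervals of the 2 mice just overlap. In each mouse the interval of Mir7080 lies above that of Mir7044, the next member. That of Mir7044 ran from 84.5 to 112.9 in mouse 1 and from 53.4 to 77.0 in mouse 2.

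Mir7044 (chr6:118085192-118085263, plus strand) stood next, with 189 and 120 counts, or 81.1 ± 23.7 CPM. Its host Rasgef1a encodes an exchange factor for Ras-family GTPases. The hairpin takes the last 72 bases of a 705-base intron, and an alternative coding exon overlaps it. Mir7047 had 169 and 105 counts, or 71.9 ± 22.1 CPM. Both stood higher in mouse 1, and their intervals overlap each other within each mouse.

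Mir6944 had 118 and 116 counts, or 61.7 ± 0.78 CPM, the smallest spread of the 4 highest. It is a complete 96-base intron of Dbn1, the gene of drebrin, an actin-binding protein of dendritic spines. Its 5p arm begins with the intron and its 3p arm ends with it, at the 3′ splice site.

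Below these 4 the mean levels were 19.7 CPM or less. Mir6982 (chr18:60958073-60958140), in the last part of an intron of Camk2a, the calcium/calmodulin-dependent kinase of excitatory synapses, had 44 and 31 counts, or 19.7 ± 4.36 CPM. Mir7019 in Pink1, a kinase of mitochondrial quality control, had 46 and 25 counts (18.6 ± 7.37 CPM). Mir7066 in Ncan, which encodes the brain proteoglycan neurocan, had 53 and 18 counts (18.6 ± 12.6 CPM), the widest relative spread among the members at 10 CPM or more on average. These 3 cannot be ranked among themselves, since their means lie within the spread between the mice.

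Mir6953 in Grina, a multipass membrane protein named for its link to glutamate receptors, had 40 and 22 counts (16.3 ± 6.31 CPM). Mir7046 in Rabac1, a Rab-binding protein of the Golgi, had 28 and 29 counts (15.03 ± 0.745 CPM). Mir6954 in Mroh1 had 23 and 20 counts (11.3 ± 0.84 CPM). Mir6953 and Mir7046 sit in short introns of 81 and 77 bases, with only 13 and 11 bases left before the hairpin.

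The threshold of 10 CPM cut through a continuous run of values. Just inside stood Mir6954 at 11.3 CPM and just outside stood 4 members between 9.45 and 9.98 CPM on average. Mir6945 in Pdlim7, a PDZ and LIM domain protein of the actin cytoskeleton, had 23 and 15 counts. Mir7052 in the deubiquitinase gene Josd2 had 25 and 13 counts, and Mir6900 in Ndufa10, a subunit of respiratory complex I, had 23 and 13. Mir7004 in the phospholipid flippase gene Atp9a had 32 counts in mouse 1 and 5 in mouse 2. These 4 and Mir7066 were at 10 CPM or more in mouse 1 only, so 14 members reached that level in at least 1 mouse.

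Next in order, Mir7069 lies in Farsa, a phenylalanyl-tRNA synthetase subunit, and had 19 and 14 counts (8.68 ± 1.65 CPM). Mir6934 in the Rab regulator Tbc1d16, Mir6897 in Uggt1, a folding sensor of the endoplasmic reticulum, and Mir7000 in the JNK scaffold gene Mapk8ip1 had 27 or 28 counts in both mice together. Mir7070, a complete 86-base intron of Fbxw9, had 15 and 9 counts. Mir6990 in the nuclear receptor gene Esrra had 12 and 11. Counting intervals of neighbouring members in this stretch overlap in both mice, so their order is not resolved at this depth.

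**Figure D2:**
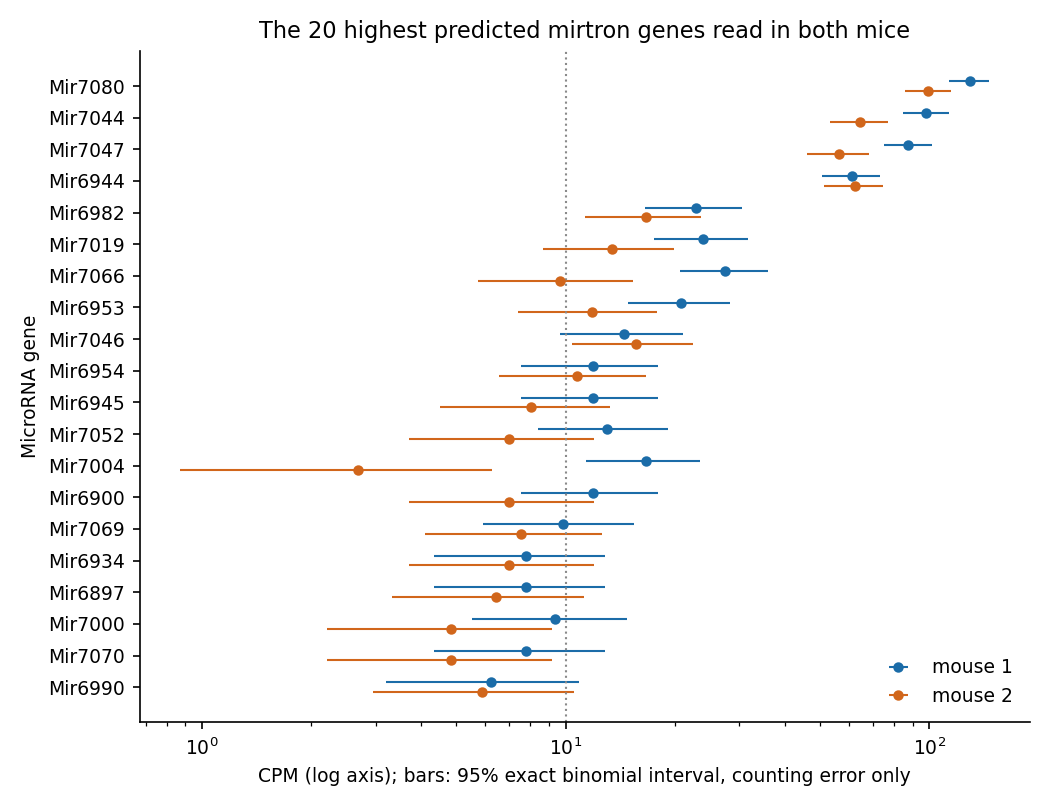
CPM on a log axis (x) of the 20 highest members read in both mice (y). Each point is 1 library with its 95% exact binomial interval, and the dotted line marks 10 CPM. The 4 highest stand apart from the others in both mice, and Mir7066 and Mir7004 show the widest gaps between the animals.

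Hosts were sorted by the start of their symbols into groups named by function, with 161 of 201 members left in hosts of no group. A group's counts cover the symbols that matched, not every host of that role. Of the 8 members in the group of solute and ion transporter genes 7 were read, all 7 in both mice. Mir7004 in Atp9a had 37 counts in all. Mir7055, in the vesicular glutamate transporter gene Slc17a7, had only 4 and 3 counts. Mir6928 in the proton pump gene Atp6v0a1 had 2 and 6.

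The 11 members in the group of kinases, phosphatases and GTPase regulators had 436 counts, and 10 were read. Mir7044 held 309 of them, followed by Mir7046, Mir7000 and Mir6989 in Map4k2 (13 and 8 counts). Mir6939 in the kinase gene Akt1 had 4 and 4. All 7 members in the group of synapse and neuronal cytoskeleton genes were read, with 159 counts. Mir6982 in Camk2a and Mir6953 in Grina held most of these. Mir6997 in the spectrin gene Sptan1 had 2 and 3 counts. The group also took in Mir6915 and Mir6914 of Ankrd52, a phosphatase subunit gene, and Mir7081 of the DNA methyltransferase gene Dnmt1, whose symbols match it although their roles do not. Sorting by symbol also left Mir6944 in the drebrin gene Dbn1, with 234 counts, among the hosts of no group. Mir7019 in the kinase gene Pink1 (71 counts) and Mir6934 in the Rab regulator gene Tbc1d16 (28 counts) were left there too. Mir6982 in the kinase gene Camk2a was counted in the synapse group only. The groups therefore separate neither neuronal hosts nor kinase and GTPase regulator hosts from the others.

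Of 7 members in the group of RNA, chromatin and transcription genes, 6 were read with 37 counts in all. Mir7073 in Cnot1, the scaffold of the CCR4-NOT deadenylase, led with 13 and 6. Of 3 members in the group of matrix and adhesion genes, 2 were read with 10 counts. Mir7066 in the proteoglycan gene Ncan, with 71 counts, matched no symbol of that group. The immune and blood group had 3 members and 22 counts, of which 20 were Mir7056 in Ptpn5, a phosphatase known from striatal and cortical neurons rather than from blood. The other two, in Cd82 and Il10ra, had 1 count each, in mouse 1. The single member of the muscle group, Mir6923 in the embryonic myosin gene Myh3, had none. For comparison, 122 of the 161 members in all other hosts (75.8%) were read and 4 reached 10 CPM in both mice. The groups hold too few members for the differences in share to be read as more than counts.

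For 44 members no count was seen in either mouse, so that each could still have had 1.55 CPM (mouse 1) or 1.61 CPM (mouse 2), the level of 3 counts. In number order they begin with Mir6901 in Sned1 and Mir6904 in Parp1, a DNA repair enzyme. By group they include Mir7005 in the laminin gene Lama5, Mir7006 in Zfp512b, Mir7043 in Rassf4, Mir7074 in the potassium-chloride cotransporter gene Slc12a4 and Mir6923 in Myh3. Others, named after their values were seen, lie in complement genes (Mir6978 in C3, Mir6972 in Cfb), the lymphotoxin gene Ltb (Mir6973a), the mast cell and basophil protease genes Cpa3 (Mir7007) and Mcpt8 (Mir6949), the pancreatic gene Ctrb1 (Mir7076) and immunoglobulin gene segments (Mir7094-1 and Mir7094-2). Mir7090 in the beta-catenin gene Ctnnb1 and Mir6996 in Notch1, a receptor gene of broad expression, were also at 0. Members in hosts of a like kind were also read, at low counts, among them Mir6969 in the pancreatic gene Clps (0 and 3), Mir6974 in the lymphotoxin gene Lta (1 and 1), Mir7058 in the T-cell gene Lat (2 and 0) and Mir6983 in Csf1r, a receptor gene of macrophages and microglia (1 and 1).

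Each of 5 host genes holds 2 members, and none of these 10 members exceeded 9 counts in a library. In the RNA helicase gene Skiv2l, Mir6971 had 7 and 6 counts and Mir6970 had 0 and 3. In Ankrd52, Mir6915 had 9 and 3 counts and Mir6914 had 1 and 0. In Arap3, a GTPase-activating protein gene, Mir6980 had 2 and 1 and Mir6981 had 1 and 0. In Srebf1, the regulator of lipid synthesis, Mir6921 had 0 and 1 and Mir6922 had 1 and 0. In Cmip, Mir7077 had 1 and 0 and Mir7078 had none. In Skiv2l and Ankrd52 the pair was uneven in the summed counts, 13 against 3 and 12 against 1. The low member in Skiv2l, Mir6970, is one of the 4 whose hairpin shares a run of 20 bases with another, and the part of this in its count was not tested.

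In the annotation most of these hairpins have a splice site at one end, and few at both. With a tolerance of 2 bases, 14 members span an annotated intron of the same strand from end to end. Another 174 match the last base of an intron only, 4 match the first base only, and 9 match neither end. So 188 members (93.5%) end at a 3′ splice site, against 37 (3.8%) of the 973 other Mir genes, and 18 (8.96%) begin at a 5′ splice site, against 11 (1.13%). By that definition most members have the shape of tailed mirtrons, and the name conventional mirtron would hold for the 14. Counting only the 612 other Mir genes inside a gene of the same strand, 6.05% end and 1.80% begin at such a site. The series was predicted as mirtrons, so these matches describe the annotation and are no result of the libraries. Of the 9 that match neither end, 7 run 6 or 7 bases past the end of the intron into the exon. The other 2 are Mir7036b in Add1 and Mir7025 in Pdgfra. For 173 of the 174, those whose best-fitting intron is the one they end, a median of 499 intron bases come before the hairpin, and at most 36205. In 45 of these fewer than 100 bases come before it.

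Both shapes were found at the top and among the unread. Of the 14 whole-intron members, 10 (71.4%) were read, 4 had 0 counts, and Mir7080 and Mir6944 held 668 of their 717 counts. The other 12 had at most 24 counts in both mice together, led by Mir7070, Mir6958 in Dennd6b with 5 and 5 counts, and Mir7068 in Cherp with 3 and 3. Of the 174 that end with an intron only, 139 (79.9%) were read and 7 reached 10 CPM in both mice. The median of summed counts was 2 for whole introns and 3.5 for the tailed ones. By the length of intron before the hairpin, 34 of 44 members were read with 3 to 99 bases, 60 of 71 with 100 to under 1000 and 43 of 57 with 1000 or more. Their median summed counts were 4, 4 and 3. Each of these classes held unread members and members at 10 CPM in both mice.

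**Figure D3:**
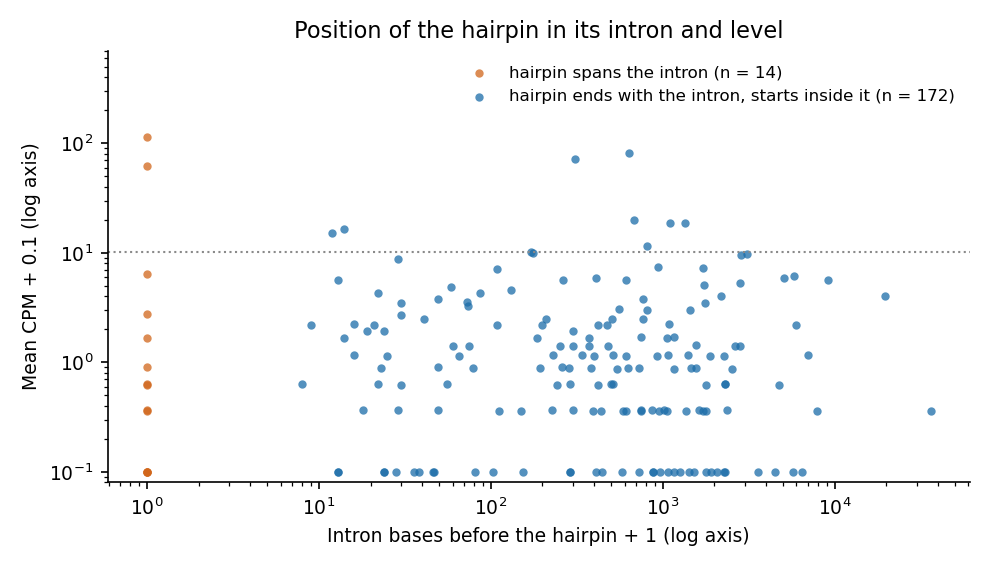
Mean CPM + 0.1 of a member (y, log axis) against the intron bases before its hairpin + 1 (x, log axis), for members whose hairpin ends within 2 bases of the intron's end. Whole introns stand at the left, the dotted line marks 10 CPM, and Mir7082, which begins 4 bases before its intron, is left out. Above the line stand 2 whole introns, Mir7046 and Mir6953 with 11 and 13 bases before the hairpin, and 6 members with longer stretches before it.

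In 160 members the hairpin touched no exon of its host, and in 41 it overlapped an exon of some host transcript. Of the 41, 14 overlapped coding sequence, 7 an untranslated region and 20 exons without coding annotation. These 41 had 1045 counts, and 34 of them (82.9%) were read, while the 160 had 1693 counts, with 123 (76.9%) read. Mir7080 and Mir7044 made up 743 of the 1045. Whether exonic reads of the host entered these counts was not tested.

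The mature sequences show the splice site and the pyrimidine tract in front of it. RefSeq sequences matched 185 members, with 354 mature arms, and all 180 matched hairpins lie at the M21 position. Of 177 3p arms, 137 (77.4%) end in AG and 119 (67.2%) in CAG, as 3′ splice sites do. Among the other Mir genes 56 of 517 3p arms (10.8%) end in AG. The median 3p arm of a member is 72.2% C or U, against 54.5% in other Mir genes, and the median 5p arm is 68.2% A or G, against 50%. Not every 3p arm reaches the splice site: that of Mir7080 stops 4 bases before the hairpin's end, whereas those of Mir7044, Mir6944, Mir7019, Mir7046 and Mir7066 end with it. Only 15 of 177 5p arms (8.47%) begin with GU, the start of a 5′ splice site, against 4.48% in other Mir genes. Member hairpins are also short, with a median of 66 bases against 84, and richer in G and C (57.1% against 49.2%). These features, too, describe the annotation of a series predicted as mirtrons.

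Seeds were largely the members' own. The 354 arms carry 325 distinct seeds, 54 arms have a seed in common with another member, and 55 (15.5%) with a mouse microRNA outside the range. No arm of Mir7080, Mir7044 or Mir6944 shares its seed with another mouse microRNA. The seed of mmu-miR-7019-5p recurs in mmu-miR-6907-5p. The counts do not show which arm was read, so these matches describe the annotation only.

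The 4 highest members were the same in both mice, while levels scattered at the bottom. Across all 201 members Pearson's r of log2(CPM + 1) was 0.87 and Spearman's rho was 0.72. Both values include the 44 members at 0 in both mice. This is a description across genes of 2 libraries, and the values of each mouse share 1 library. Of the 157 members read, 53 were read in 1 mouse only, 32 in mouse 1 and 21 in mouse 2, with at most 5 counts. A single count in all was seen for 30 members. At such counts a difference between the animals was not detectable.

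Of the 10 members at 10 CPM or more on average, 9 were lower in mouse 2 with TMM library sizes, which scale the totals so that most genes agree, and 8 by plain CPM, where Mir6944 was slightly higher in mouse 2. Their median log2 ratio of mouse 2 over mouse 1 was −0.58 with TMM sizes. Over all 324 microRNA genes at that level the median was −0.0038, with 162 lower in mouse 2. A two-sided exact binomial test on the 2 counts, with TMM library sizes and Benjamini-Hochberg adjustment over the 324 genes, called 1 of the 10 at an adjusted p under 0.05 and at least 2-fold. The same rule called 19.4% of all 324 genes, and 5.25% of the 324 were called as higher in mouse 1. The test covers the counting error of 2 libraries and no condition. Since each mouse gave 1 library, differences between the animals and between preparations cannot be told apart, nor can fewer cells of a type and less RNA per cell.

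The member called was Mir7066, at 27.5 and 9.66 CPM in mouse 1 and mouse 2, 2.94-fold higher in mouse 1 (log2 ratio −1.56, 95% interval −2.41 to −0.76, adjusted p = 7.11e-05 by the exact test). Mir7044 (−0.65, interval −0.995 to −0.32), Mir7047 (−0.68, −1.05 to −0.32), Mir7080 (−0.43, −0.71 to −0.15), Mir7019 (−0.88, −1.64 to −0.14) and Mir6953 (−0.86, −1.68 to −0.07) also passed the adjusted threshold, all under 2-fold. At any fold, 6 of the 10 members thus passed it, against 74.7% of all 324 genes. The adjusted p of these 5 by the exact test ran from 0.000185 for Mir7044 to 0.0409 for Mir6953. The intervals of Mir6944 (−0.02, −0.40 to 0.36), Mir7046 (0.05, −0.75 to 0.86), Mir6954 and Mir6982 included 0. With every gene that had a count tested, Mir7004 and Mir6933 were called beside Mir7066, 3 of 157 members against 9.83% of all 722 genes. In the unstranded column 2 of 14 members were called, Mir7004 and Mir7066, against 20.1% of 308 genes. Mir7004 had 32 and 5 counts, and Mir6933 in Pgs1 had 1 and 10.

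**Figure D4:**
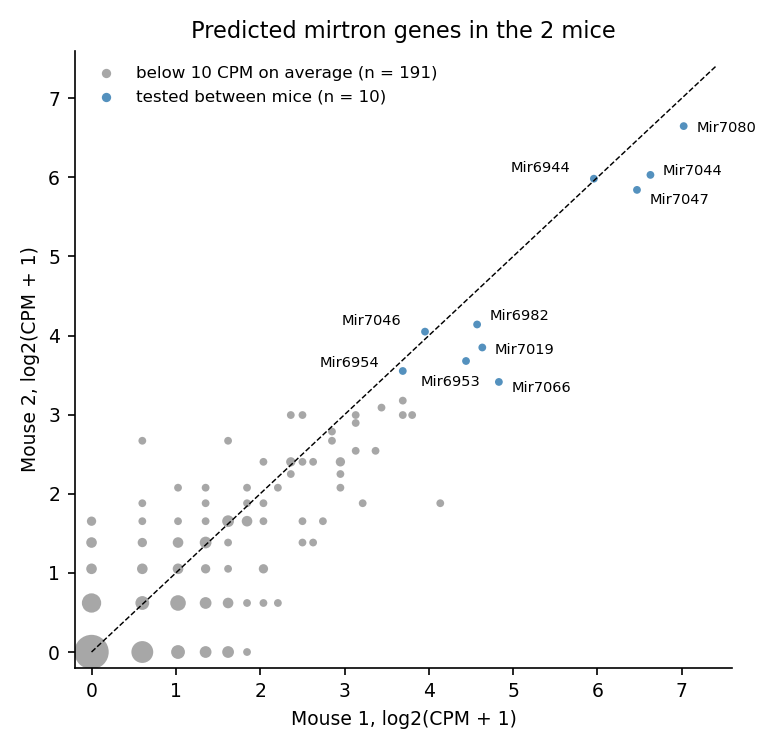
log2(CPM + 1) of all 201 members in mouse 1 (x) and mouse 2 (y), with the dashed line where both are equal and larger points where several members share a value. The 10 members tested are named. Mir6944 and Mir7046 lie on or just above the line and the other 8 below it.

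The conserved mirtrons of mouse stood well above all these members. Mir1224 in Vwa5b2 stood at 623 and 276 CPM in the 2 mice, Mir877 in Abcf1 had 436 and 250.0 CPM, and Mir702 in Plod3 had 391 and 218 CPM. All 3 were lower in mouse 2, with log2 ratios of −1.22, −0.85 and −0.89. The lowest of these values is still above the 129 CPM of Mir7080 in mouse 1. Together the 201 predicted members had 2738 counts in the 2 mice, against 1718 for Mir1224 alone.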

How the data were processed

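The authors deposited whole-number read counts per gene, 1 headerless table a library. Per the file headers of the accompanying notes, the assembly was mm10 and the annotation GENCODE M21. No source used here names the aligner, counter or trimming. By their values the columns hold unstranded, sense and opposite-strand counts, and the sense column was used. The 4 lines that name no gene were left out (34.6% of 7082096 reads in mouse 1 and 37.2% of 6253481 in mouse 2 fitted several places). Nothing in the labels names molecular identifiers.

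CPM used each library's sense total. Hosts (genes of the hairpin's strand that contain it) and introns came from GENCODE M21, sequences from RefSeq (GRCm38.p6). Library sizes came from edgeR 4.0.16 (TMM) and, as an alternative, DESeq2 1.42.0. Exact tests used SciPy 1.17.1 and were tested on simulated counts. The simulated counts held counting error and set changes only, so spread between mice was not covered.

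Named members were the 20 highest read in both mice, those at 10 CPM or more in either mouse, those in hosts with 2 members, those past the test, any with more opposite-strand than sense counts, the 5 next under 10 CPM, and up to 2 unread members per host group in number order. Others are said to be named after their values were seen, or illustrate a host group. Members and lists were chosen with earlier results of these data known. The host of 1 member is not reported here.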

Additional observations from a re-analysis of the deposited data

How the results depend on the processing

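No paired analysis was possible because both libraries belong to a single group. With 3 or more counts 98 members were read in either mouse and 59 in both, and with 10 or more counts 33 and 18. With 1 mouse left out, the members read in the other ranged from 125 to 136, the number at 10 CPM from 9 to 14, the share of counts from 0.0609% to 0.0830%, and the median of the named read members from 6.97 to 9.84 CPM. Mouse 1 alone gave the 14. At 5 CPM 18 members were detected in both mice, and at 50 CPM 4. Between the mice, 2 of 14 members were called in the unstranded column (Mir7004 and Mir7066), against 20.1% of all 308 genes tested, and 3 of 157 with no filter on low counts, against 9.83% of all 722. Requiring 1 intron end only, 192 members matched an intron. With TMM sizes or DESeq2 size factors the levels of 29 of 29 named read members moved by less than the SD between the mice, and with the unstranded column those of 24, while 5 moved by more. For the 81 read members with no more than 3 counts in either mouse, depth leaves the order unresolved.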

Other observations

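Outside the number range 8 microRNA genes span an annotated intron from end to end with a tolerance of 2 bases, and 4 of them stood above every member in both mice. Mir3102 in Arhgef17 had 779 ± 28.2 CPM (SD, n = 2) and Mir1981 in Marc2 had 599 ± 148 CPM, beside Mir1224 and Mir877. Mir3547 in Baiap3 had 40 and 79 counts, the higher value in mouse 2. Mir1982 in Oaz1, the gene of ornithine decarboxylase antizyme, had 14 and 7 counts, and Gm24589 in Pkd1 had 12 and 11. Gm27471, in the pseudogene Skiv2l-ps1, had none, and its hairpin shares a run of 20 bases with Mir6970 of Skiv2l. These genes were picked after the data were seen.

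A pair of the higher members lies close together on a chromosome, in different hosts. Mir6944 in Dbn1 (chr13:55477681-55477776) and Mir6945 in Pdlim7 (chr13:55507625-55507692) are both on the minus strand. Mir6943 in Grk6 (chr13:55453106-55453171, plus strand), with 8 and 8 counts, lies nearer to Mir6944 than Mir6945 does. The pair of Mir6944 and Mir6945, too, was picked after its values were seen, and closeness was not compared across all members.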
